A study of Mus musculus with 8 samples.

Results

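The 8 libraries of bulk RNA-seq compared here fall into a pair of groups by the number in brackets at the end of each sample title. The numbers 67, 71, 78 and 86 form one group, called 67-86, and the numbers 26, 27, 31 and 32 form the other, called 26-32. Each group holds 4 of the 8 libraries, with 2 libraries of control mice (CTR, Flk2-cre+ Cxcr4fl/+) and 2 of Cxcr4 conditional knockout mice (cKO, Flk2-cre+ Cxcr4fl/fl). No label says what the numbers stand for, so the comparison is between sets of libraries whose difference in handling or origin is not recorded, and its cause cannot be told apart from anything else that separated them. All mice were labelled C57BL/6 and 6 weeks old (the study's methods give an older range of ages), and all carried Flk2-cre, a Y-linked transgene that acts in hematopoietic progenitors, and at least 1 floxed Cxcr4 allele. The sequenced cells were bone marrow mesenchymal stem and progenitor cells (MSPCs), sorted as CD45- Ter119- CD31- CD144- PDGFRα+ cells with a green fluorescent reporter in the SCF gene, so that Cre recombination took place in other cells than those measured. Whether cells of several mice were pooled is not given in the sources used here, and p-values measure the spread between these libraries.

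MSPCs are perivascular stromal cells of the bone marrow that secrete CXCL12, stem cell factor, interleukin-7 and matrix, and that give rise to adipocytes and osteoblasts. They hold hematopoietic stem cells and progenitors in their niches through CXCL12 and keep them alive through stem cell factor. Their transcript levels also follow the circadian clock, inflammatory cytokines and the handling that frees them from the marrow.

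Library totals ran from 31047344 to 33070784 counts in 67-86 and from 32188963 to 38216877 in 26-32. Fewer genes had at least 1 count in 67-86 (18366 to 18750) than in 26-32 (19363 to 20684), without overlap. MSPC markers were abundant in all 8 libraries, with Cxcl12 at 39984 to 49882 CPM (counts per 1000000 counts of the library), Lepr, the leptin receptor, at 3578 to 5054 CPM and Kitl, which encodes stem cell factor, at 542 to 924 CPM. Genes of the excluded cells were at or near 0: Ptprc (CD45) reached at most 0.978 CPM, Pecam1 (CD31) 1.60 CPM and Cdh5 (CD144) 0.621 CPM. Cxcr4 lay at 0 to 0.612 CPM and does not check the genotypes, since these cells are not those in which Cre acts. The levels of an 8-library series are given below in a fixed order, first CTR replicates 1 and 3 and cKO replicates 1 and 3 for 67-86, then CTR replicates 2 and 4 and cKO replicates 2 and 4 for 26-32.

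Only Srgn and Cldn1 passed the test across all genes, and both were lower in 67-86. Srgn encodes serglycin, the core protein of secretory granule proteoglycans, and lies on chromosome 10 from 62493833 to 62527451 of GRCm38 (ENSMUSG00000020077.14). Its levels were 11.6, 10.97, 6.08 and 6.38 CPM in 67-86 and 28.3, 30.9, 16.4 and 17.5 CPM in 26-32. The highest 67-86 library was below the lowest 26-32 library, and within each group the cKO libraries were below the CTR libraries. The log2 fold change was -1.40 ± 0.13 (SE, edgeR's quasi-likelihood test with genotype as a covariate, Benjamini-Hochberg adjusted p = 0.0471, n = 4 against 4). Cldn1, the tight junction protein claudin-1, lies on chromosome 16 from 26356642 to 26371841 (ENSMUSG00000022512.2) and measured 128, 153, 90.5 and 109 CPM in 67-86 against 287, 267, 235 and 238 CPM in 26-32. As for Srgn, no library of one group reached into the range of the other, and within each group the cKO libraries were below the CTR libraries. The log2 fold change of Cldn1 was -1.09 ± 0.11 (edgeR, adjusted p = 0.0471). Of 17 tight and gap junction genes tested, Cldn1 and Cldn11 were the members with an unadjusted p under 0.05, and Cldn11 was higher in 67-86 (1.47 ± 0.57). Srgn is best known from hematopoietic cells, and the summed level of 30 myeloid marker genes, Cybb among them, was 138 to 267 CPM in 67-86 and 149 to 316 CPM in 26-32, overlapping, with Lyz2 at 4.38 to 25.7 CPM and Cd68 at 0.707 to 2.68 CPM. Of 24 of these markers tested, 2 were higher (C1qa and C1qb) and 1 lower (Cybb) at an unadjusted p under 0.05, 16 had a positive log2 fold change, and their median was 0.26, with 0.68 in CTR and 0.14 in cKO. In bulk samples fewer cells of a type and less RNA per cell cannot be told apart.

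These 2 genes are 0.0126% of the 15919 tested. At an unadjusted p under 0.05 there were 1652 genes (10.4%), with 739 on the higher (4.64%) and 913 on the lower side (5.74%). That split was 838 higher and 729 lower with a trend on gene length and GC content removed, and 600 and 1037 without a scaling factor. The 4 values of one group lay wholly above or below the 4 of the other in 1051 genes (6.6%), 425 (2.67%) higher and 626 (3.93%) lower in 67-86. DESeq2's likelihood ratio test on the same design called 336 of the 12215 genes that it gave an adjusted p (2.75%). The median size of the log2 fold change over all genes was 0.22. The call of both genes was narrow: with single libraries left out, Srgn passed in 0 of 8 fits and Cldn1 in 1, the fit without CTR replicate 3 (adjusted p 0.0362), with adjusted p-values from 0.0660 to 0.294 for Srgn and from 0.0362 to 0.294 for Cldn1. Every gene described from here on missed the adjusted threshold in the edgeR comparison of all 8 libraries with genotype as a covariate, so that its values are levels beside their spread. Some, such as Myh11 and Pttg1, passed in other edgeR fits given below. DESeq2's likelihood ratio test, which called 2.75% of its genes, also called members of lists described below. They include 0 higher and 5 lower NF-kB genes (29 tested with edgeR) and 5 higher and 1 lower interferon genes (48 tested). Of the complement genes (21 tested) it called 2 higher and 6 lower. Adjusted p-values below are from edgeR over all genes tested. Counts of higher and lower genes in a list use an unadjusted p under 0.05, beside 4.64% and 5.74% of all genes tested.

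**Figure D1:**
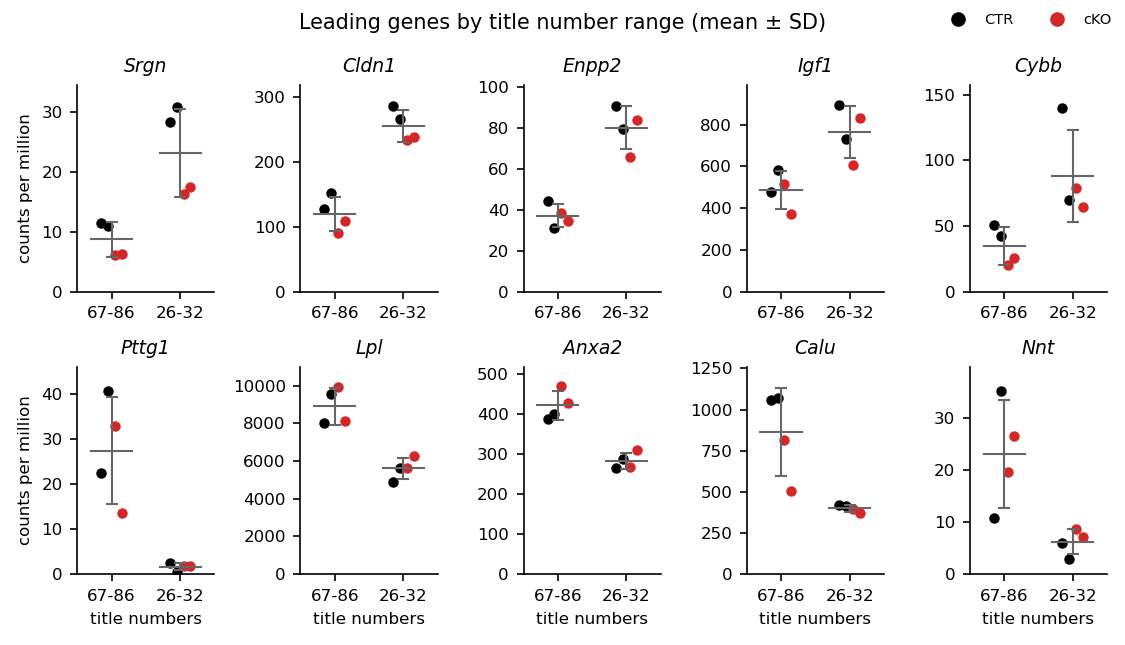
Levels of 10 genes described in the text in CPM (vertical axes, from 0) in the libraries with title numbers 67-86 and 26-32, with each point a library (black CTR, red cKO) and the line and bar the mean ± SD of 4. Srgn and Cldn1 passed the adjusted test, and in each of the 10 panels the groups do not overlap.

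The genes of smallest p that came next, among those with a mean of at least 1 CPM and no overlap, had functions of several kinds. Enpp2 encodes autotaxin, which makes lysophosphatidic acid, and had 44.2, 31.3, 38.6 and 34.6 CPM in 67-86 and 90.8, 79.6, 66.1 and 84.2 CPM in 26-32. Its highest 67-86 value was under its lowest 26-32 value (-1.08 ± 0.14, adjusted p = 0.115). Cybb, the catalytic subunit of the phagocyte NADPH oxidase, stood at 50.99, 42.2, 20.05 and 25.3 CPM against 140.0, 69.6, 78.7 and 64.8 CPM (-1.39 ± 0.23), with CTR replicate 2 highest of all. Vipr2, a receptor for vasoactive intestinal peptide, measured 18.6 to 47.4 CPM in 67-86 and 47.98 to 101 CPM in 26-32 (-1.14 ± 0.19). The calcium channel subunit Cacna1c (-1.36 ± 0.22), the potassium channel Kcnt1 (-1.23 ± 0.19) and the large membrane protein Csmd1 (-0.79 ± 0.11) were likewise lower with no overlap. So were Cyyr1 (-2.17 ± 0.37) and the splicing factor Srsf5, which had 117, 112, 97.7 and 119.7 CPM against 181, 205, 191 and 160.1 CPM. Dnm3os, the host RNA of miR-199a and miR-214 on the strand opposite Dnm3, was at 5.73 to 11.6 CPM in 67-86 and 23.3 to 32.1 CPM in 26-32 (-1.63 ± 0.23). Its exons overlap those of its microRNAs on the same strand, and an exon overlap with Dnm3 was not found. Whether the counting used the strand is not given in the sources used here. Reads of genes whose exons overlap on opposite strands therefore cannot be told apart.

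Of the 12 leading genes higher in 67-86, Pttg1 had the largest fold. It encodes securin, the inhibitor of separase, and measured 22.5, 40.6, 32.9 and 13.5 CPM in 67-86 against 2.36, 0.557, 1.77 and 1.75 CPM in 26-32. The lowest 67-86 library was above the highest 26-32 library (4.10 ± 0.50, edgeR, adjusted p = 0.0952), and of 34 proliferation genes, 0 were higher and 1, the thymidine kinase Tk1, was lower without overlap (-1.23 ± 0.31) at an unadjusted p under 0.05. Nnt, the proton-pumping transhydrogenase of the inner mitochondrial membrane, whose gene carries a deletion of several exons in C57BL/6J but not in C57BL/6N mice, was at 10.9, 35.2, 19.6 and 26.5 CPM in 67-86 and 6.00, 2.95, 8.69 and 7.14 CPM in 26-32. Its lowest 67-86 library exceeded its highest 26-32 library (1.98 ± 0.41, adjusted p = 0.209); the counts do not distinguish alleles, and the substrain of each mouse was not tested. Lpl, the lipoprotein lipase that releases fatty acids from triglycerides, was abundant, with 8000.4, 9576, 9940.3 and 8131 CPM against 4916, 5622, 5659 and 6275 CPM (0.69 ± 0.091, adjusted p = 0.115).

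The other leading genes higher in 67-86 had varied roles. Calu, the endoplasmic reticulum calcium-binding protein calumenin, had 1060.0, 1068, 818 and 502 CPM in 67-86 and 423, 411, 393 and 373 CPM in 26-32, and both 67-86 CTR libraries were above both 67-86 cKO libraries (1.09 ± 0.17). Exons of Calu, Cry2, Pth1r and Rac1 overlap a gene on the other strand. So do those of other named genes, among them Anxa2, Arntl, Cxcl16, Nfkb2, Tk1 and Timp4. Anxa2, a membrane-binding annexin, ranged over 388 to 469.7 CPM and 265 to 310.3 CPM (0.60 ± 0.085), and Cavin1, a coat protein of caveolae, over 264 to 325 CPM and 187 to 208 CPM (0.57 ± 0.083). The collagen prolyl hydroxylase P3h1 (0.65 ± 0.11), the actin monomer-binding thymosin Tmsb10 (0.71 ± 0.11), the translation repressor Eif4ebp1 (0.65 ± 0.10), the metalloreductase Steap1 (1.74 ± 0.27) and the protocadherin Pcdhb5 (1.25 ± 0.19) were higher in every 67-86 library than in every 26-32 library. Nt5dc2 (0.70 ± 0.11), whose exons overlap Stab1 on the other strand, and Xndc1 (1.01 ± 0.17) completed the 12 leading genes of this direction. Exons of Xndc1 overlap Trpc2 on the same strand, so its counts are uncertain.

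The difference between the groups was also taken within CTR and within cKO, 2 libraries against 2, which share no library. Over the 15919 genes the log2 fold changes of the 2 genotypes had a Spearman correlation of 0.228 and a Pearson correlation of 0.0887. Over the 11684 genes with a mean count of at least 100, they were 0.318 and 0.206. The values describe these genes, which share scaling, length and base composition and are not independent replicates. The 2 genotypes had the same sign in 60.8% of all genes, in 802 of the 1097 genes at an unadjusted p under 0.05 within CTR (73.1%) and in 774 of the 1017 within cKO (76.1%). The log2 fold change of Srgn was -1.37 in CTR and -1.42 in cKO, that of Cldn1 -0.96 and -1.22, and that of Enpp2 -1.15 and -1.02.

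**Figure D2:**
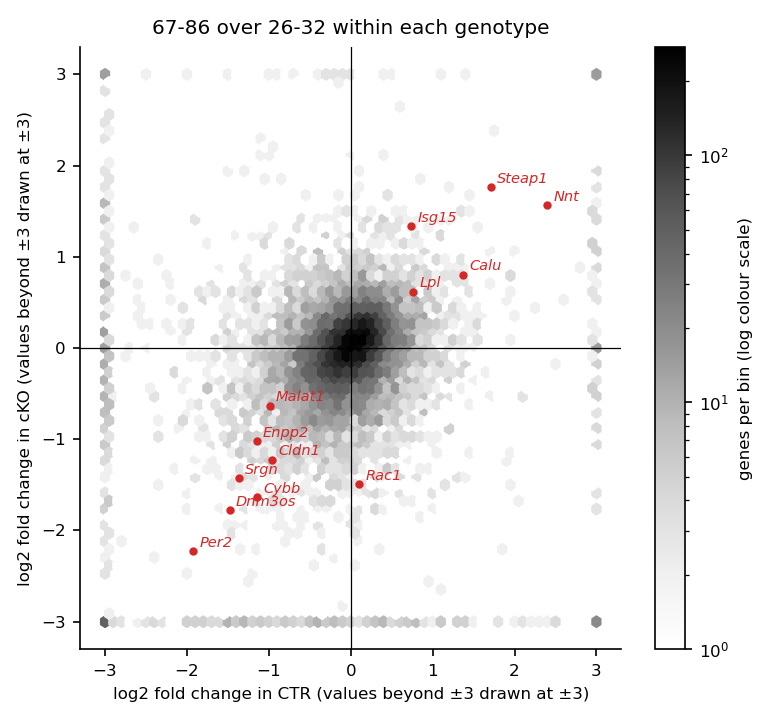
Log2 fold change of 67-86 over 26-32 within CTR (horizontal axis) and within cKO (vertical axis) for the 15919 genes tested, as a density of genes with values beyond ±3 drawn at ±3, and with named genes in red. Srgn, Cldn1, Enpp2 and Per2 lie near the diagonal below 0, and Rac1 lies below 0 in cKO and near 0 in CTR.

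The 2 groups were also compared within each genotype. Within cKO, 3 genes (0.0188%) passed an adjusted p under 0.05, all lower in 67-86 (Rac1 and Myh11 are described here), and within CTR 0 passed, with 1097 (6.89%) at an unadjusted p under 0.05 within CTR and 1017 (6.39%) within cKO. With a library left out, 0 or 1 gene passed within cKO, and up to 4 passed within CTR (without CTR replicate 4). Rac1, the small GTPase that organises actin at the leading edge, had 485, 499.6, 171 and 141 CPM in 67-86 and 483, 449, 437 and 455 CPM in 26-32, so that cKO replicates 1 and 3 were below every other library. Myh11, the smooth muscle myosin heavy chain, was at 0 counts in cKO replicates 1 and 3 and at 287 and 471 counts in cKO replicates 2 and 4, at least 112.56-fold lower against a floor of 3 counts in each library. In CTR its levels were 3.77 and 2.61 CPM in 67-86 and 14.01 and 18.7 CPM in 26-32. Rac1 was chosen after its values were seen. The test of whether the group difference itself differed between genotypes called 0 genes at an adjusted p under 0.05 with edgeR (587, 3.69%, at an unadjusted p under 0.05), and its adjusted p was 0.197 for Rac1 and 0.197 for Myh11. Without CTR replicate 4 it called 3 genes, and without CTR replicate 2 it called 2.

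The circadian clock is a feedback loop in which CLOCK and BMAL1 switch on the Per and Cry repressors, the nuclear receptors Nr1d1 and Nr1d2 and output factors such as Dbp. Per2, Per3 and Cry1 were lower in 67-86. Per2 measured 5.67, 8.14, 4.19 and 5.99 CPM in 67-86 and 32.6, 20.9, 32.00 and 16.5 CPM in 26-32, and Per3 3.54, 5.22, 3.24 and 5.38 CPM and 11.1, 11.01, 8.64 and 10.1 CPM. All 8 values of either gene separated the groups (Per2 -2.07 ± 0.28, adjusted p = 0.115; Per3 -1.20 ± 0.25, adjusted p = 0.208). Cry1 was at 38.2, 35.3, 36.5 and 28.5 CPM against 57.7, 50.3, 57.6 and 48.9 CPM, also without overlap (-0.61 ± 0.12, adjusted p = 0.193). For Cry2, whose levels were 46.8, 43.6, 48.1 and 70.2 CPM and 74.9, 68.4, 73.2 and 66.7 CPM, the library of cKO replicate 3 reached into the range of 26-32 (-0.43 ± 0.15, adjusted p = 0.382).

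Nr1d1, a repressor of Bmal1, went the other way, with 72.9, 64.8, 92.1 and 135 CPM in 67-86 and 58.7, 31.7, 78.5 and 36.7 CPM in 26-32 (0.82 ± 0.28, adjusted p = 0.373). Dbp, a transcription factor of clock output, had 17.7, 12.6, 21.9 and 23.8 CPM and 14.9, 10.9, 10.6 and 13.9 CPM (0.59 ± 0.22, adjusted p = 0.409). Both overlapped between the groups, and the exons of both overlap a gene on the other strand (Thra and Sphk2). Per1, which also responds acutely to glucocorticoids and cAMP, spread widely in both groups, at 9.34 to 24.02 CPM and 8.81 to 34.2 CPM (-0.63 ± 0.40). Both activators overlapped: Clock was at 58.9 to 80.04 CPM and 59.2 to 84.8 CPM (-0.023 ± 0.15), and Arntl, which encodes BMAL1, at 31.3 to 48.1 CPM and 40.2 to 55.8 CPM (-0.33 ± 0.15). The sign of Clock turned when cKO replicate 1, cKO replicate 2 or CTR replicate 4 was left out (0.067, 0.086 and 0.046). Of 18 clock genes tested, 2 were higher and 4 lower at an unadjusted p under 0.05, where all genes gave 4.64% and 5.74%, and their median log2 fold change was -0.26 against -0.018 over all genes. Within CTR the median was -0.35 and within cKO -0.21. Leaving out CTR replicate 2 moved the clock median to -0.13, and leaving out CTR replicate 4 moved it to -0.38. Cry2, Dbp, Per1, Clock and Arntl are given here to complete the loop and were chosen after their values were seen. The times of day at which the marrow was taken are not given in the sources used here, and their part was not tested.

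**Figure D3:**
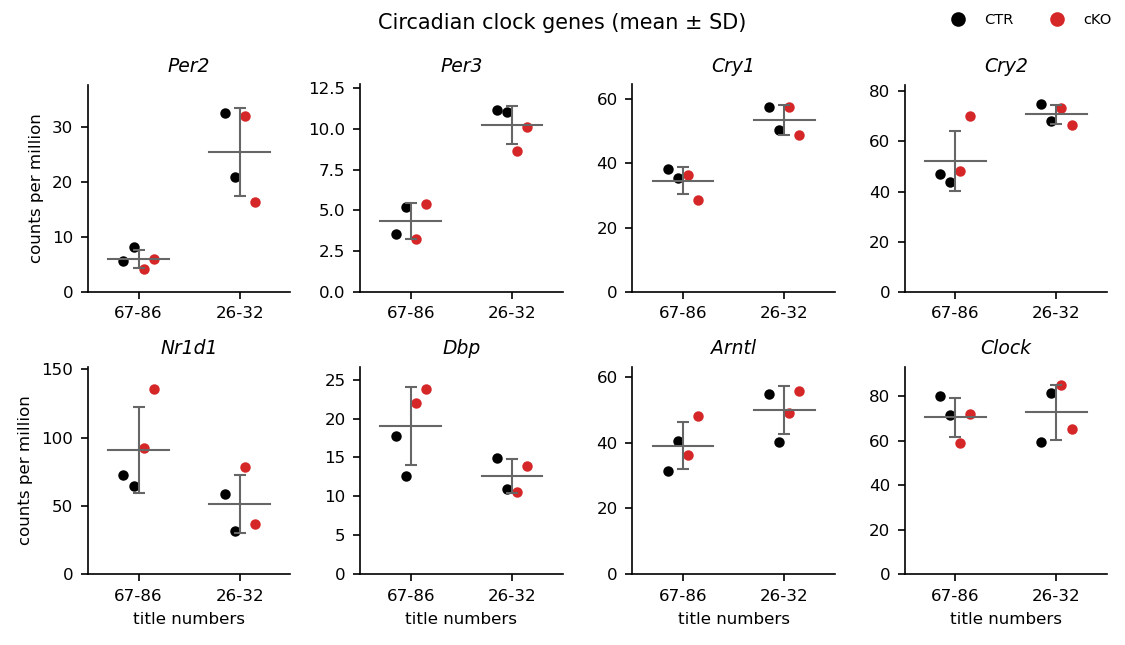
Levels of 8 clock genes in CPM (vertical axes, from 0) in 67-86 and 26-32, with each point a library (black CTR, red cKO) and the line and bar the mean ± SD of 4. Per2, Per3 and Cry1 are lower in 67-86 with no overlap, Nr1d1 and Dbp are higher with overlap, and Clock overlaps widely.

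BMAL1 and CLOCK bind the E-box CACGTG, a palindrome. It stood in the 250 bases before the start of 4 of the 16 tested clock genes with a RefSeq promoter here, against 6.02% of all 32851 promoters of that length and 9.7% of the 10827 tested genes with a promoter. Of the 5 clock genes at an unadjusted p under 0.05 that had a promoter, Cry1 alone held it. Its promoter is shown because it places the motif close to the start of a gene that separated the groups (chr10:85185055-85185304 of GRCm38.p6, minus strand, from RefSeq), with the E-box in capitals 60 bases before the start.
Cry1: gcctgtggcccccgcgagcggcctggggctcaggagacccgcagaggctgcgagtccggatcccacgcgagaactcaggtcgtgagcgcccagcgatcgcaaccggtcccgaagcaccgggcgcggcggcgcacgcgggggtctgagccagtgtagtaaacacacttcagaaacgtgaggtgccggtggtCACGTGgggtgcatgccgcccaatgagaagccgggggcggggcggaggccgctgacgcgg
A match of letters is a description of the sequence and was not tested as a binding site in these cells.

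NF-kB is the transcription factor family downstream of tumor necrosis factor and interleukin-1 receptors, and it induces its own subunits and inhibitors. Its members with an unadjusted p under 0.05 were all lower in 67-86. Birc3, the ubiquitin ligase cIAP2 and a target of NF-kB, had 26.99, 26.6, 21.4 and 30.1 CPM in 67-86 and 56.6, 39.9, 36.00 and 59.9 CPM in 26-32, which did not overlap (-0.85 ± 0.20, adjusted p = 0.235). The subunit genes Nfkb1, at 23.5, 23.9, 21.1 and 21.1 CPM against 31.8, 32.4, 28.7 and 31.2 CPM (-0.45 ± 0.10), and Relb, at 43.97, 52.8, 37.7 and 45.3 CPM against 74.8, 58.7, 55.8 and 76.2 CPM (-0.54 ± 0.15), were also lower in all 4 libraries of 67-86 than in any of 26-32. Birc2 (-0.65 ± 0.17) and, chosen after their values were seen, the inhibitors Nfkbie (-0.90 ± 0.26) and Tnip1 (-0.52 ± 0.15) and the subunit Nfkb2 (-0.60 ± 0.18) were lower with overlap. In all, 0 of 29 tested genes of this list were higher and 7 lower at an unadjusted p under 0.05, beside 4.64% and 5.74% of all genes. The median log2 fold change of the list was -0.27, with -0.14 in CTR and -0.48 in cKO. It was -0.12 without cKO replicate 4 and -0.47 without CTR replicate 2. Among chemokines, Cx3cl1 (fractalkine) was at 379.5, 383, 306 and 227 CPM in 67-86 and 510.2, 469, 386 and 579.7 CPM in 26-32, lower without overlap (-0.59 ± 0.16). Cxcl16 was lower with overlap (-0.61 ± 0.16), while Cxcl12 was higher, as given with the MSPC genes. Of 16 chemokine genes tested, 1 was higher and 3 lower at an unadjusted p under 0.05. A negative log2 fold change was found in 11, and the median was -0.18, with -0.23 in CTR and -0.42 in cKO.

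Immediate early genes respond within minutes to growth factor or stress signals. Myc measured 32.5, 23.2, 24.2 and 20.1 CPM in 67-86 and 35.9, 50.05, 40.2 and 34.02 CPM in 26-32, and the G protein regulator Rgs2 30.2, 28.9, 25.7 and 24.4 CPM and 83.04, 37.1, 37.6 and 48.5 CPM. Neither overlapped between the groups (Myc -0.66 ± 0.16, adjusted p = 0.255; Rgs2 -0.88 ± 0.23, adjusted p = 0.266). The matricellular Ccn1 (-0.82 ± 0.25) and Ier2 (-0.34 ± 0.11) were lower with overlap. Of 40 genes tested, 0 were higher and 6 lower at an unadjusted p under 0.05, beside 4.64% and 5.74% of all genes. The median of the list was -0.20 (-0.13 without cKO replicate 1). Fos was at 383, 281, 128 and 208 CPM in 67-86 and 245, 239.9, 88.7 and 187 CPM in 26-32. These levels overlapped (0.39 ± 0.25, adjusted p = 0.624), and Fos was picked with them already known. It is often read as a sign of cell dissociation, whose part in the levels of this list was not tested.

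Complement components, which stromal cells secrete into their surroundings, were lower in several members and higher in others. Serping1, the C1 inhibitor, was at 7782, 7877, 5711 and 6529 CPM in 67-86 and 9942, 9223, 8207 and 9217 CPM in 26-32, and its ranges did not overlap (-0.38 ± 0.073, adjusted p = 0.193). The protease C1s1 had 449, 492, 246 and 293 CPM against 641, 633, 455 and 599.6 CPM, with the lowest 26-32 library within the range of 67-86 (-0.68 ± 0.14, adjusted p = 0.210). Chosen after their values were seen, C2 (-0.66 ± 0.15) and Cfb (-0.51 ± 0.12) were lower without overlap; their exons overlap the read-through gene Gm20547, so their counts are uncertain. C3, the central component, varied widely, at 211, 190.2, 42.8 and 69.4 CPM and 803, 480.4, 127 and 784 CPM, with cKO replicate 2 of 26-32 inside the range of 67-86 (-2.32 ± 0.55). Against these, the membrane inhibitor Cd59a was higher in 67-86, with 7.34, 6.85, 19.2 and 8.07 CPM against 3.88, 3.40, 3.29 and 3.09 CPM (1.55 ± 0.35), as was, with overlap, C1qb (1.37 ± 0.26), a macrophage gene at 1.11 to 9.35 CPM. Of 21 genes tested, 4 were higher and 8 lower at an unadjusted p under 0.05, beside 4.64% and 5.74% of all genes. The median of the list was -0.18, with -0.020 in CTR and -0.20 in cKO. Leaving out cKO replicate 1, 4 or 3 moved the complement median to -0.041, -0.058 or -0.075.

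Genes induced by type I interferon had more higher than lower members in 67-86. Isg15, a ubiquitin-like modifier, had 57.6, 57.3, 149 and 82.6 CPM in 67-86 and 34.8, 35.2, 46.1 and 46.8 CPM in 26-32, and Ifit1, which binds foreign RNA caps, 88.4, 95.6, 269.9 and 135 CPM and 53.3, 58.9, 82.3 and 73.1 CPM. Neither overlapped, and cKO replicate 1 was the highest library of both (Isg15 1.04 ± 0.20, adjusted p = 0.175; Ifit1 1.07 ± 0.22, adjusted p = 0.210). Cmpk2 (0.65 ± 0.14) and Bst2, the virion tether tetherin (0.46 ± 0.11), were higher with overlap. The list had 15 genes higher and 1 lower of 48 tested at an unadjusted p under 0.05, beside 4.64% and 5.74% of all genes. It had 41 genes with a positive log2 fold change, at a median of 0.27 (0.25 in CTR and 0.27 in cKO). The lower gene was the GTPase Tgtp1 (-2.78 ± 0.70, chosen after its values were seen), whose reads are shared with the near-identical Tgtp2, so its value is uncertain.

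Promoters of interferon-induced genes often carry a response element, searched here as 2 copies of GAAA with 2 bases between them, on either strand. It was found in the 250 bases before the start of 18 of 37 tested interferon genes with a RefSeq promoter here (48.6%), and in 7 of the 12 with an unadjusted p under 0.05. The share was 3.25% of the 10827 tested genes with a promoter and 2.98% of all promoters of that length. The promoters of the leading pair are shown because both carry repeated copies (Isg15, chr4:156200819-156201068, minus strand; Ifit1, chr19:34640639-34640888, plus strand; GRCm38.p6, from RefSeq), with the motif in capitals. In Isg15 there were 3 overlapping matches that began 78, 72 and 66 bases before the start, and in Ifit1 2 matches that began 104 and 85 bases before it.
Isg15: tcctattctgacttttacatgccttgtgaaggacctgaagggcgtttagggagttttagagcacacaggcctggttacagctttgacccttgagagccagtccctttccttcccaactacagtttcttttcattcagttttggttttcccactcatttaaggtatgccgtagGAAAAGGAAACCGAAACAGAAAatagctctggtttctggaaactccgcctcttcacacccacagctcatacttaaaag
Ifit1: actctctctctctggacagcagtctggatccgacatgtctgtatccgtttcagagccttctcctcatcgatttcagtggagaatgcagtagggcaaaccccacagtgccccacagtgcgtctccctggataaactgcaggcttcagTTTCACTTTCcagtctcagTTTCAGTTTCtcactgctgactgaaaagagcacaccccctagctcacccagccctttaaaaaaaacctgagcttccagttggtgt

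Chaperones likewise had more higher than lower members. Stip1, which hands clients from Hsp70 to Hsp90, had 99.8, 119.9, 105 and 88.02 CPM in 67-86 and 86.2, 86.96, 67.6 and 82.1 CPM in 26-32, and Dnaja1, an Hsp40 cochaperone, 113.6, 121.1, 121.7 and 107.95 CPM and 107.7, 103.8, 85.09 and 93.94 CPM. Both separated the groups by small gaps (Stip1 0.38 ± 0.11; Dnaja1 0.28 ± 0.094). The constitutive Hsp70 gene Hspa8 (0.44 ± 0.15) and the immunophilin Fkbp4 (0.36 ± 0.12) overlapped. Of 24 cytosolic heat shock genes tested (median 0.22), 9 were higher and 1 lower at an unadjusted p under 0.05, beside 4.64% and 5.74% of all genes. In the endoplasmic reticulum the disulfide isomerases P4hb (1181, 1296, 1218 and 1283 CPM against 954, 1078, 997 and 1065 CPM), Pdia6 (839, 921, 935 and 903 CPM against 652, 754, 652 and 784 CPM) and Pdia4 (605 to 765 CPM against 424 to 600.1 CPM) were higher in every 67-86 library, by 0.30 ± 0.074, 0.36 ± 0.089 and 0.38 ± 0.11. Sel1l, an adaptor of degradation from the reticulum, was lower instead, at 212 to 237 CPM against 289 to 363 CPM (-0.46 ± 0.097). That list had 6 genes higher and 1 lower of 27, with a median of 0.16 (0.090 without CTR replicate 2 and 0.25 without CTR replicate 4).

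Nuclear genes of oxidative phosphorylation had small positive values as a rule. Atp5b, the beta subunit of ATP synthase, was at 664, 722, 694 and 675 CPM in 67-86 and 594, 578, 557 and 592 CPM in 26-32, without overlap (0.27 ± 0.067, adjusted p = 0.252), and Cox7b of complex IV at 55.3, 64.04, 56.96 and 52.8 CPM and 43.2, 42.2, 39.2 and 52.4 CPM, also without overlap (0.39 ± 0.12). Atp5e (0.40 ± 0.13) and Ndufs3 of complex I (0.27 ± 0.095) overlapped between the groups. 15 of 81 genes were higher and 0 lower at an unadjusted p under 0.05, and 73 had a positive value (median 0.18). Cytosolic ribosomal protein genes had a median of 0.13 (0.065 without cKO replicate 2 and 0.20 without cKO replicate 4), with 78 of 86 positive and 6 higher and 0 lower at an unadjusted p under 0.05, beside 4.64% and 5.74% of all genes. Their leading member Rpl41 had 108, 100.3, 29.1 and 110.1 CPM and 27.5, 22.3, 22.6 and 33.4 CPM, with cKO replicate 1 inside the range of 26-32 (1.72 ± 0.38; 1.34 in cKO), and it shares sequence with processed copies elsewhere in the genome. Of the 13 mitochondrially encoded genes, mt-Atp8, whose gene overlaps mt-Atp6, was higher (1.59 ± 0.29) and the rest had an unadjusted p above 0.05.

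These lists are made of short genes, and gene length and GC content moved with the difference; their part in it was not tested beyond the fit below. Over the 15892 genes with a transcript length, the median log2 fold change went from 0.064 in the first of 10 equal bins, which holds the shortest transcripts, to -0.11 in the last, and from -0.16 to 0.047 over 10 bins from the lowest to the highest GC content. Across genes, the log2 fold change had a Spearman correlation of -0.119 with length and 0.158 with GC content. The median transcript was 1005 bases long in the oxidative phosphorylation list and 1054 in the ribosomal list, against 3066 over all genes. With the trend on length and GC content removed, the oxidative phosphorylation median was 0.12 and the ribosomal median 0.080, while the interferon median was 0.32, the clock median -0.27 and the NF-kB median -0.32. In that fit Srgn and Cldn1 were at -1.36 and -0.96, with adjusted p-values of 0.0523 and 0.0937.

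**Figure D4:**
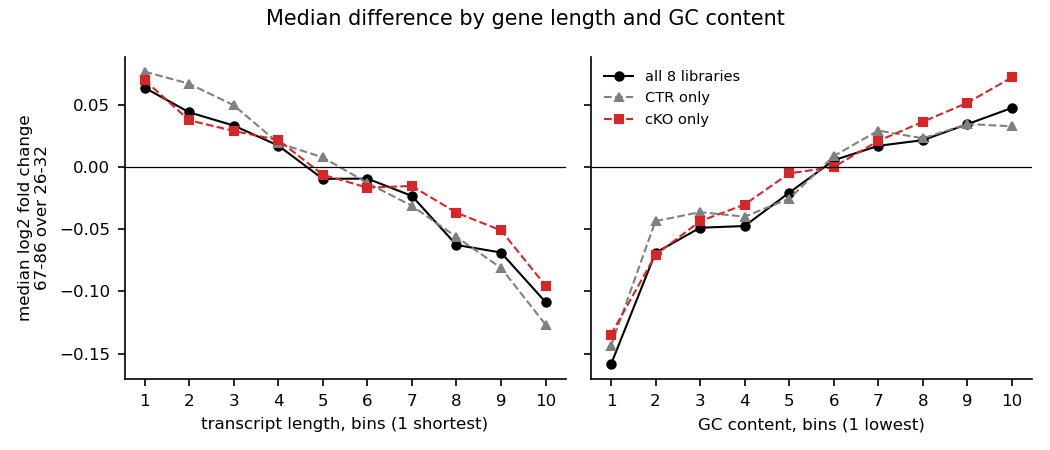
Median log2 fold change of 67-86 over 26-32 (vertical axes) in 10 equal bins of genes by transcript length (left) and by GC content (right), for all 8 libraries (black), CTR only (grey) and cKO only (red). Both genotypes slope the same way, and over all 8 libraries the medians run from 0.064 to -0.11 over length and from -0.16 to 0.047 over GC content.

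Genes that define MSPCs were higher in some members and lower in others. Of 28 tested, 5 were higher and 3 lower at an unadjusted p under 0.05, with a median of -0.026 (0.035 with the length and GC trend removed). Cxcl12 had 45414, 49563, 44863 and 49882 CPM in 67-86 and 40228, 43115, 44356 and 39984 CPM in 26-32, higher without overlap but by a small fold (0.20 ± 0.057, adjusted p = 0.313). Kitl had 755, 545, 634 and 542 CPM and 654, 924, 766 and 859 CPM, lower with overlap (-0.35 ± 0.15, adjusted p = 0.461). All mice carried a green fluorescent reporter in this gene, and the cells were sorted on its fluorescence, which limits the comparison of Kitl. Elsewhere the paper used a single copy of a Kitl GFP allele to lower membrane-bound SCF in cKO mice. The adipokine Adipoq was at 2730.0, 3298, 3974 and 3499 CPM against 2022, 2471, 2589 and 2899.6 CPM (0.46 ± 0.094), and Igfbp4, which binds insulin-like growth factors, at 14093 to 18725 CPM against 11649 to 14355 CPM (0.41 ± 0.093), both higher with overlap. Il34, a ligand of the macrophage colony-stimulating factor receptor, was lower without overlap (-0.26 ± 0.074). Lepr (-0.087 ± 0.12), Pdgfra (-0.19 ± 0.099) and the transcription factors Foxc1 (-0.17 ± 0.081) and Ebf3 (-0.31 ± 0.17), which maintain these cells, overlapped. Lepr changed sign without cKO replicate 1 (0.0052).

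Among adipogenic genes, besides Lpl and Adipoq, a pair stood out by p. Agt, angiotensinogen, had 2612, 2751, 2749 and 2749 CPM in 67-86 and 2125, 2094, 2312 and 2415 CPM in 26-32, without overlap (0.31 ± 0.056, adjusted p = 0.159). Fabp4, the fatty acid-binding protein of adipocytes, was at 14.4, 30.02, 47.98 and 41.5 CPM against 10.7, 13.6, 20.7 and 19.8 CPM, and CTR replicate 1 fell among the 26-32 libraries (1.03 ± 0.23). Of 22 genes tested, 3 were higher and 0 lower at an unadjusted p under 0.05 (median 0.15, or 0.25 without cKO replicate 3). In the fatty acid synthesis list the desaturases Scd1 (-0.86 ± 0.26), Fads2 (-0.66 ± 0.24) and Scd2 (-0.35 ± 0.15) were lower with overlap, 3 of 19 tested, with 0 higher. The list's median was near 0, at -0.029 (0.054 in CTR, -0.064 in cKO and 0.015 with the length and GC trend removed). Among osteogenic genes, Ibsp, which encodes bone sialoprotein, was at 9673, 7675, 8291 and 10197 CPM in 67-86 and 11682, 10660.2, 13838 and 13389.5 CPM in 26-32, lower without overlap (-0.44 ± 0.095, adjusted p = 0.227). Clec11a, the osteogenic factor osteolectin, was higher without overlap, at 151, 160.4, 165 and 137 CPM against 123, 113, 90.4 and 121 CPM (0.48 ± 0.12), and the parathyroid hormone receptor Pth1r (0.31 ± 0.090) and alkaline phosphatase Alpl (0.35 ± 0.13) were higher with overlap. That list had 4 genes higher and 1 lower of 27 (median -0.079, but 0.12 in CTR and 0.036 in cKO, so that its sign is not settled).

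Secreted signals were found in both directions. Igf1, a growth factor for osteoblasts and hematopoietic cells, was at 479, 583, 517 and 369.9 CPM in 67-86 and 892, 732, 608 and 833 CPM in 26-32, lower without overlap (-0.63 ± 0.14, adjusted p = 0.233). Its relative Igf2 had 74.5, 39.8, 45.6 and 56.2 CPM against 29.05, 37.05, 39.2 and 36.3 CPM and was higher, by a narrow gap (0.63 ± 0.21, adjusted p = 0.362), and the heparin-binding factor Mdk, midkine, was higher at 156, 201, 200.1 and 165 CPM against 117, 143, 130.2 and 146 CPM (0.45 ± 0.12). Of 31 growth factor and cytokine genes, 6 were higher and 4 lower (median 0.0088, a sign that turned in 7 of the 8 fits that left out a library, to -0.082 without cKO replicate 1). In the Notch pathway the receptor Notch2 was lower without overlap (198 to 247 CPM against 256 to 301 CPM, -0.33 ± 0.100), the effector Heyl lower with overlap (-1.10 ± 0.35) and the glycosyltransferase Lfng higher with overlap (0.71 ± 0.24). In the Wnt pathway the receptor Fzd9 was higher (47.9 to 76.9 CPM against 29.9 to 44.7 CPM, 0.74 ± 0.15) and the ligand Wnt5b lower (28.6 to 38.2 CPM against 44.6 to 49.96 CPM, -0.43 ± 0.12), both without overlap. The Notch list held 1 gene higher and 2 lower of 17 (median 0.020), and the Wnt list 3 and 2 of 38 (median 0.11). These counts stand beside 4.64% and 5.74% of all genes.

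Matrix genes at the lower side in 67-86 included the small proteoglycans that bind collagen fibrils. Lum, lumican, had 164, 139.9, 131 and 108 CPM in 67-86 and 294, 216, 189 and 183 CPM in 26-32, without overlap (-0.67 ± 0.12, adjusted p = 0.159), and Dcn, decorin, 368, 307, 259.7 and 238 CPM and 436, 402, 329 and 366 CPM, where CTR replicate 1 of 67-86 exceeded 2 of the 26-32 libraries (-0.38 ± 0.093). Timp3, a matrix-bound metalloproteinase inhibitor whose gene lies within Syn3, was at 64.8, 54.4, 46.1 and 94.4 CPM against 140.3, 152, 136 and 165 CPM, lower without overlap (-1.17 ± 0.21, adjusted p = 0.159). Its relative Timp4 was higher without overlap, at 77.8 to 86.03 CPM against 49.7 to 74.2 CPM (0.46 ± 0.12), and the elastic fiber protein Fbln5 likewise (3369 to 4048 CPM against 2851 to 3125 CPM, 0.30 ± 0.079). Collagen VI chains Col6a1 (-0.19 ± 0.066), Col6a3 (-0.51 ± 0.15) and Col6a5 (-1.17 ± 0.38) were lower, Col6a5 without overlap. The collagen list held 1 gene higher and 5 lower of 32 (median -0.11, but -0.048 without CTR replicate 4, -0.057 without CTR replicate 2 and -0.063 without the genotype term), and the glycoprotein and proteoglycan list, to which Srgn belongs, 4 higher and 8 lower of 42 (median -0.037).

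Some long RNAs that stay in the nucleus were lower in 67-86. Malat1, an abundant RNA of nuclear speckles, was at 362, 384, 434 and 342 CPM in 67-86 and 848, 660.0, 705 and 514 CPM in 26-32, without overlap (-0.81 ± 0.14, adjusted p = 0.159), and Neat1, the scaffold of paraspeckles, at 56.9, 55.3, 29.2 and 47.6 CPM and 72.98, 83.6, 127 and 57.6 CPM, without overlap by a small gap (-0.85 ± 0.28, adjusted p = 0.368). Kcnq1ot1, an imprinted antisense RNA, overlapped (-0.43 ± 0.16). Of 7 such genes tested, 0 were higher and 3 lower at an unadjusted p under 0.05. Their median was -0.18, and -0.053 with the trend on length and GC content removed, where Malat1 was at -0.67, Neat1 at -0.62 and Kcnq1ot1 at -0.053.

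Markers of other cells were low but not equal between the groups, and their part in the differences above was not tested. Hemoglobin genes were higher in 67-86 with overlap: Hbb-bs had 76.8, 56.8, 87.5 and 112 CPM against 45.8, 25.2, 50.4 and 61.9 CPM, with CTR replicate 3 of 67-86 below cKO replicate 4 of 26-32 (0.90 ± 0.20, adjusted p = 0.227), and Hba-a1 had 35.8 to 60.6 CPM against 15.3 to 40.8 CPM (0.62 ± 0.23). Reads of these genes are shared with near-identical copies, so single members are uncertain. The summed level of the 20 erythroid and megakaryocyte markers was 187 to 299 CPM in 67-86 and 83.6 to 196 CPM in 26-32. At an unadjusted p under 0.05, 6 of 18 tested were higher and 1, the integrin Itga2b of platelets, lower, beside 4.64% and 5.74% of all genes. The median of these markers was 0.38, but 0.066 without CTR replicate 4 and 0.73 without CTR replicate 2. Antibody genes stood in a single library: Igha, Igkc and Jchain were at 90.5, 83.8 and 22.96 CPM in CTR replicate 3 of 67-86 and at most 1.16, 2.44 and 0.581 CPM in the other 7. The pericyte gene Rgs5 was lower in 67-86 within both genotypes (11.8, 9.74, 3.15 and 4.05 CPM against 22.9, 28.4, 9.84 and 14.7 CPM, -1.48 ± 0.22, -1.23 in CTR and -1.75 in cKO), as was Myh11, while Acta2 of smooth muscle was at 1.06 to 7.43 CPM and overlapped. Their list had members in both directions: of 20 smooth muscle and pericyte genes tested, 3 were higher and 2 lower at an unadjusted p under 0.05 (median -0.092). The higher ones were smoothelin, Smtn (0.35 ± 0.11), the tropomyosin Tpm2 (0.53 ± 0.17) and the actin Actg2, at 0 to 1.93 CPM, all with overlap (Actg2 was chosen after its values were seen).

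**Figure D5:**
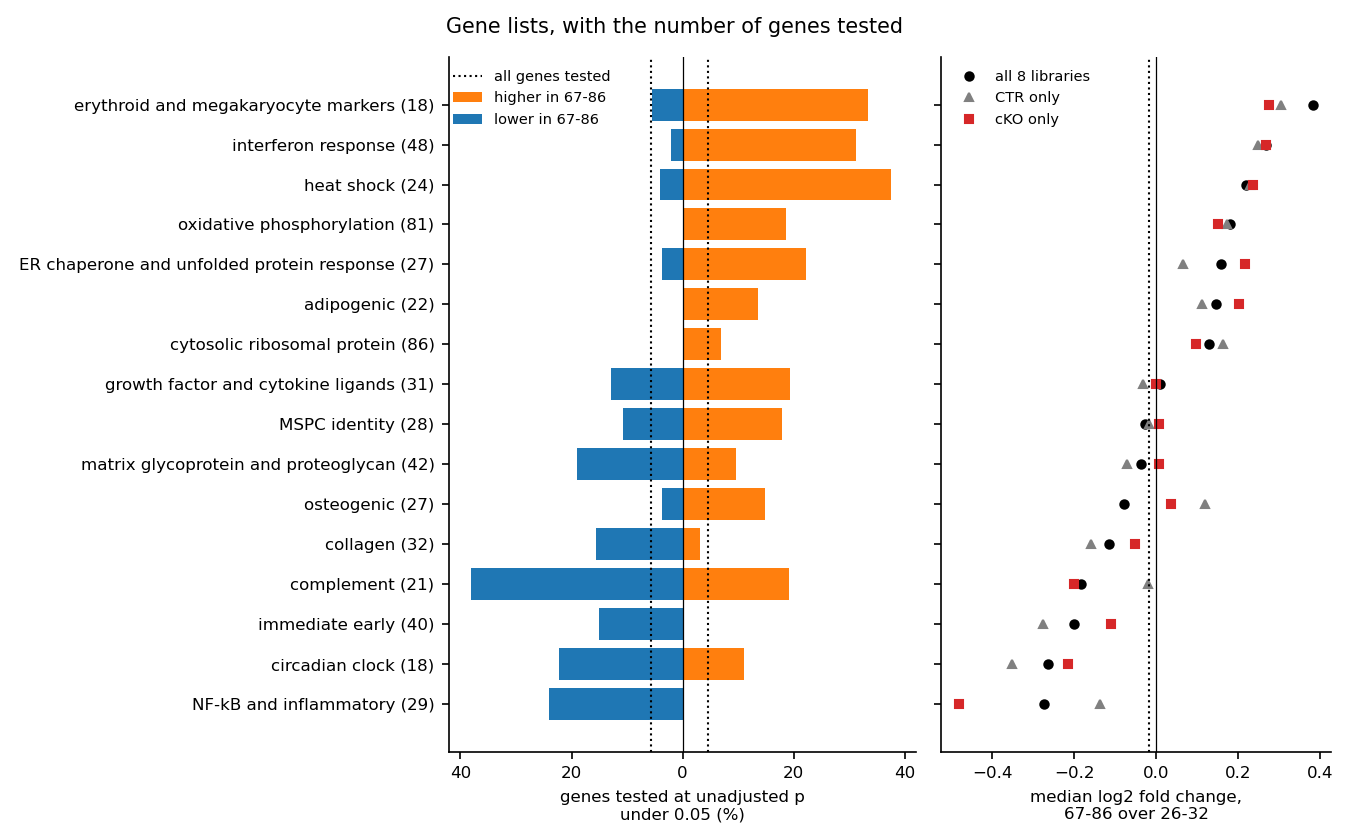
Left, share of the tested genes of 16 lists (number tested in brackets) that were higher (orange) or lower (blue) in 67-86 at an unadjusted p under 0.05, with dotted lines at 4.64% and 5.74% for all genes. Right, median log2 fold change of each list over all 8 libraries (circles), within CTR (triangles) and within cKO (squares), from -0.27 for NF-kB genes to 0.38 for erythroid and megakaryocyte markers.

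Other lists had few members at an unadjusted p under 0.05. No gene had an unadjusted p under 0.05 among 24 Hox genes tested, which record the position of stromal cells along the body, nor among 10 endothelial, 6 fibroblast and 6 Schwann cell markers. The 4 Y-linked genes tested, among them Ddx3y at 56.8 to 107 CPM, also gave 0. Glycolysis and hypoxia had 1 gene higher and 0 lower of 30, cholesterol synthesis 1 and 0 of 25, the TGF-beta and BMP list 2 and 1 of 43, and lysosomal genes 1 and 1 of 34. Targets of the glucocorticoid receptor had 1 higher, Angptl4 (688 to 1375 CPM against 473 to 792 CPM, 0.72 ± 0.19), and 2 lower of 21, among them Sgk1, without overlap (85.6 to 117 CPM against 126 to 165 CPM, -0.42 ± 0.13). A negative log2 fold change was found in 18 of the 21 targets and a positive one in 3. The median of the targets was -0.27, with -0.10 in CTR and -0.38 in cKO.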

How the data were processed

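RNA of sorted MSPCs was sequenced as bulk poly(A) RNA-seq in 8 libraries. The deposited table holds raw counts per gene, which the authors made with HISAT2 and HTSeq on mm10, per the submitters' processing notes; versions and the use of strand in counting are not given in the sources used here. Of 52636 genes in the table, 52489 were matched to a symbol and 25681 had a count. All columns were mapped to a sample by its title.

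Libraries were grouped by the title number (67-86 or 26-32), which no label explains, and not by any measured value. Genes with a mean count of at least 10 (15919) were scaled by TMM and fitted with edgeR 4.0.16 (quasi-likelihood test) in R 4.3.3, with title number group and genotype as terms and Benjamini-Hochberg adjustment over all genes tested at 0.05. Standard errors are the log2 fold change divided by the root of the F statistic. The groups were also compared within each genotype and through the interaction, in a fit with a mean for each pair of genotype and group. Levels are counts per 1000000 counts of the library total (CPM). TMM factors ran from 0.985 to 1.00 in 67-86 and from 0.997 to 1.02 in 26-32. Alternatives were other scalings and filters, DESeq2 1.42.0, limma 3.58.1 with the replicate number as a block, no genotype term, removal of a loess trend on transcript length and GC content, and leaving out each library. Scripts were tested on simulated data.

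Genes are named by a rule: those past the threshold, the 12 of smallest p in each direction that have a mean of at least 1 CPM and do not overlap, up to 4 of smallest p in each of 44 gene lists, and markers. Others are marked where they stand as chosen after their values were seen. The members, gene lists and tests were chosen with earlier results of these data known, and the lists are described by counts and medians. Promoters are those of RefSeq on GRCm38.p6, 250 bases before the start, searched on both strands; the longest transcript of each gene and gene overlaps came from GENCODE M21, which may differ from the release the authors counted on. Library totals of 31047344 to 38216877 counts set the precision of low genes, and the spread between libraries includes this counting error. Gene set tests were not used, and 1 gene past the threshold within cKO is not reported here.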

Additional observations from a re-analysis of the deposited data

Results flagged for a closer look

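In 13 of 278 groups of 4 libraries, the highest or lowest library stood apart by more than Dixon's 95% critical value for 4 samples (its gap to the nearest library as a share of the whole range). For genes chosen without regard to their values, chance would give about 13.9. Many of these genes were chosen by their values, so that the counts cannot be compared as a test. The causes were not tested.

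Library cKO replicate 1 of 67-86 stood apart in 6 genes: Cd59a (0.844, 19.2 CPM against 6.85 to 8.07 in the other 3), C2 (0.856, 394 CPM against 585 to 626), Cfb (0.883, 292 CPM against 372 to 384), Rpl41 (0.929, 29.1 CPM against 100.3 to 110.1), Col6a1 (0.924, 2406 CPM against 2017 to 2044) and Scd1 (0.873, 35.0 CPM against 68.2 to 75.1). CTR replicate 3 of 67-86 stood apart in Gm11100 (0.949, 0.338 CPM against 11.4 to 13.3), Parva, an actin-binding adaptor at integrins (0.867, 132 CPM against 281 to 316), and Gm49380 (1, 0.0307 CPM against 0). CTR replicate 1 stood apart in Agt (0.98, 2612 CPM against 2749 to 2751) and in the myeloid gene Lyz2 (0.88, 24.9 CPM against 6.05 to 7.21). In 26-32, CTR replicate 2 stood apart in Wnt5b (0.936, 50.0 CPM against 44.6 to 44.9) and in Igha (1, 0.155 CPM against 0). Those of Gm49380 and Igha rest on a handful of reads. The genes Parva, Gm11100 and Gm49380 were named here after their values were seen, and Gm11100 shares exon positions with Thoc7 on the other strand.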

How the results depend on the processing

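The 2 genes past the adjusted threshold became 1 (Myh11 in place of both) when the difference was averaged over the 4 pairs of genotype and group, 0 with upper quartile scaling, 0 without the genotype term, 0 with the trend on length and GC content removed (an alternative chosen after seeing the data), 4 without a filter on counts (Gm49380 and Pttg1 were added), 336 with DESeq2's likelihood ratio test and 355 with its Wald test. With 1 library left out there were 0 to 4: 4 without CTR replicate 3 (Cldn1, Dnm3os, Gm11100 and Parva), 1 without cKO replicate 1 (Rpl41), 1 without cKO replicate 3 (Calu) and 0 without any of the other 5. The other alternatives gave 2 or 3. For upper quartile scaling both genes had an adjusted p of 0.0515 with edgeR, and without the genotype term 0.107 (Cldn1) and 0.18 (Srgn). The cause was not tested.

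With 1 library left out, calls within CTR (0 in all) ran from 0 to 4, within cKO (3) from 0 to 1, and in the test between genotypes (0) from 0 to 3, and the 587 genes with an unadjusted p under 0.05 in that test were 336 at a mean count of at least 100, where fewer genes were tested. The NF-kB median (-0.27) was -0.41 without the genotype term and -0.47 to -0.12 with 1 library left out. The osteogenic median (-0.079) was 0.15 with a count above 0 in every library and -0.12 to 0.076 with 1 library left out, the growth factor median (0.0088) was 0.17 with a count above 0 in every library, -0.014 without a scaling factor, -0.066 without a filter on counts and -0.082 to 0.0096 with 1 library left out (negative in 7 of 8), the matrix median (-0.037) was 0.045 with the trend removed and -0.0998 to 0.0208 with 1 library left out, and the heat shock median (0.22) was 0.18 to 0.31 with 1 library left out.

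The log2 fold change of Clock (-0.14 to 0.086 with 1 library left out) turned positive with the trend removed (0.17) and without cKO replicate 1 (0.067), CTR replicate 4 (0.046) or cKO replicate 2 (0.086). Lepr (-0.18 to 0.0052) turned with the trend removed (0.040) and without cKO replicate 1 (0.0052), and Igkc (-1.19 to 4.95) without CTR replicate 3 (-1.19), the library that held the antibody RNA. Lyz2 (-0.62 to 0.96) was negative without CTR replicate 1 (-0.62), 2 (-0.32) or 4 (-0.16), and Cd68 (-0.20 to 0.67) without CTR replicate 1 (-0.20), cKO replicate 3 (-0.0334) or CTR replicate 2 (-0.086). Of 2343 values of the 139 genes compared across the edgeR alternatives, 2301 kept their sign and their side of the threshold. All of these genes but Srgn and Cldn1 began short of the threshold, and the DESeq2 and limma fits were not part of this count. The replicate numbers lie within one group each, so a fixed block could not be fitted. With the replicate number as a random block, limma called 2 genes and 1823 at an unadjusted p under 0.05, against 2 and 1808 without the block, at a consensus correlation of -0.00784. The comparisons within each genotype and between genotypes were not fitted with the block. Depth limits genes such as Cxcr4, at under 1 CPM in every library.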
